A study of Mus musculus with 10 samples.

Results

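The genes described here copy DNA in S phase and part the chromosomes in mitosis, or M phase. 44 genes were listed by symbol, 24 for S phase and 20 for M phase, and 42 of them, 23 and 19, were named in the probe table, out of 19505 genes in all. Mcm7 and Ccnb1 are unnamed here and were not analysed. The 42 genes were measured in total RNA of mouse intestinal organoids, which are small epithelia grown in culture, on 5 arrays labelled knockout (KO) for IκBα and 5 labelled wild type (WT). IκBα, the product of Nfkbia, holds NF-kB transcription factors in the cytoplasm. Both groups carry the same organoid, intestine and P6 marks, and the sources used here do not say what P6 means, how the gene was deleted, or whether replicates came from separate animals or cultures. P-values therefore measure only the spread between these arrays, which may be technical.

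A cell entering S phase first loads the MCM helicase on replication origins, with Cdc6 and Cdt1 as loaders, and then fires those origins with Cdc45 and the GINS complex. E2F factors and cyclin E drive this step and switch on the genes for nucleotide supply and DNA synthesis. Later in the cycle cyclin A and B with Cdk1, together with Plk1 and the Aurora kinases, build the spindle, and the checkpoint genes Bub1 and Bub1b hold back separation until all chromosomes are attached. In the intestine such divisions are the work of crypt base stem cells and of their transit-amplifying progeny, while Paneth cells and mature enterocytes do not divide.

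All levels are deposited log2 values, a difference is the KO mean minus the WT mean, and a gene passed when its limma p, adjusted over 19572 probe sets with 1 gene symbol, was under 0.05. Nfkbia read 9.19 ± 0.38 (SD, n = 5) in WT, and the 5 KO arrays lay between 4.72 and 5.34 (limma, adjusted p = 2.81e-08). The Y-linked transcripts Eif2s3y, Uty and Kdm5d were also lower in all 5 KO arrays, by 2.42 to 5.20, so the sex of the source animals and the KO label cannot be told apart. Of 7 epithelial markers 3 rose in KO (Krt18 by 1.43, Cdh1 by 0.45 and Krt8 by 0.43), 2 fell (Cdx2, a factor of intestinal identity, by 2.16 and Vil1 by 1.03), and Epcam and Krt19 did not pass. Epcam lay between 10.67 and 11.30 over the 10 arrays and the immune marker Ptprc between 5.37 and 6.0. Ptprc was below the 95th percentile of the negative control probes, which was 7.17 to 7.77 by array. Of the 7 immune markers Itgam rose in KO by 1.56 and Csf1r by 1.53, each at or below that percentile on 4 KO and 5 WT arrays. WT replicate 4 stood apart from the other WT arrays in the genes described here, so counts are also given without it.

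Most members of both phases were high or low in the same arrays, and the 2 groups overlapped for each of the 42. WT replicate 4 was the lowest WT array in 42 of 42 members and WT replicate 3 the highest in 38. Among KO arrays, replicate 3 was the highest in 40 members and replicate 5 the lowest in 36. The mean of KO was below that of WT for 41 members, as it was for 52.1% of all probe sets, and the median difference was -0.79 where that of all probe sets was -0.01. Of the 42, 4 fell (E2f8, Ccne2, Mcm10 and Pcna), none rose, and 38 did not pass; of all probe sets 26.7% passed, with 11.7% lower and 15% higher in KO. All 4 were S phase genes, while 0 of 19 M phase genes passed. An unadjusted limma p under 0.05 was held by 8 of 19 M phase and 8 of 23 S phase genes. Of all probe sets at least the 26.7% that passed also lay under that limit. The exact share is larger and was not computed, so these counts cannot be called high or low against it. Whether the phases differ was not tested. KO and WT arrays did not overlap for 0 of the 42 members and for 21.4% of all probe sets, 12.3% higher and 9.07% lower in KO.

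**Figure D1:**
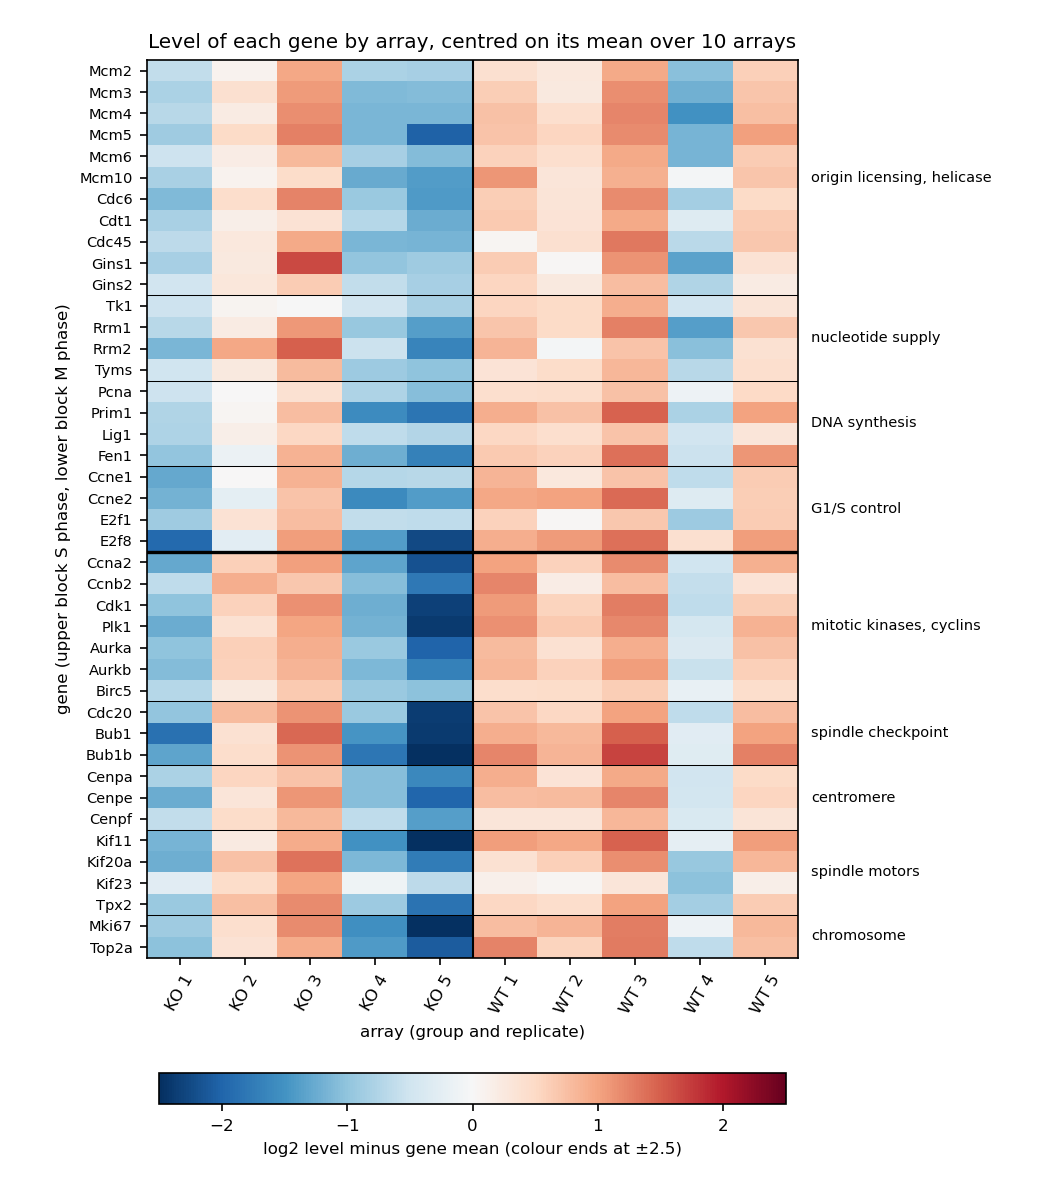
Each row is a member and each column an array; colour gives the log2 level minus the gene's mean over the 10 arrays, and the thick line parts 23 S phase from 19 M phase genes. KO replicate 3 and WT replicate 3 were high in both blocks, and KO replicate 5 was the lowest KO array in 36 of the 42 rows.

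In the RefSeq promoter table (GRCm38.p6), 34 of the 42 measured members had an entry. The 250 bases before the start were searched on both strands for 3 sets of letters: those of the E2F site (TTTCCCGC, TTTGGCGC, TTTCGCGC or TTTGCCGC), of the cell cycle homology region or CHR (TTTGAA), and of the CCAAT box (CCAAT). No match of one set overlapped a match of another in these members. CCAAT letters stood before 14 of 15 M phase and 11 of 19 S phase genes, or 93.3% and 57.9%, and before 37.5% of all 27025 genes in the table. CHR letters stood before 6 of 15 M phase and 4 of 19 S phase genes (40.0% and 21.1%, and 18.3% of all). E2F letters were found before 3 of 19 S phase genes, which were Cdc6, Mcm5 and Mcm6, and before 1 of 15 M phase genes, Cdk1 (15.8% and 6.67%, and 2.16% of all). Of other genes of the pathway that are not members, 62 mitosis and 36 replication genes had an entry. CCAAT letters stood before 62.9% and 52.8% of these, CHR letters before 38.7% and 13.9%, and E2F letters before 11.3% and 25.0%. A match of letters is a description and was not tested as a binding site.

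The upstream stretches of 5 members, picked after values and matches were known, are shown because they frame the results: Mcm6, a helicase subunit with 3 E2F matches, 2 of which overlap each other; E2f8, the member that fell most; Cdk1, which held all 3 kinds of match; Top2a, with 6 CCAAT matches; and Kif23, the member with a higher mean in KO. They lie at chr1:128359706-128359955, chr7:48881597-48881846, chr10:69352913-69353162, chr11:99024190-99024439 and chr9:61946800-61947049, all on the minus strand, and are written 5′ to 3′ up to the base before the start, with matches in capitals.
Mcm6: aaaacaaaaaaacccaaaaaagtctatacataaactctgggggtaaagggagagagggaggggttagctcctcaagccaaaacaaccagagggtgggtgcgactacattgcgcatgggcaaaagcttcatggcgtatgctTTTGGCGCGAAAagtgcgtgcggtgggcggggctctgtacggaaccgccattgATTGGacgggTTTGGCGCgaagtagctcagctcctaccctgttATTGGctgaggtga
E2f8: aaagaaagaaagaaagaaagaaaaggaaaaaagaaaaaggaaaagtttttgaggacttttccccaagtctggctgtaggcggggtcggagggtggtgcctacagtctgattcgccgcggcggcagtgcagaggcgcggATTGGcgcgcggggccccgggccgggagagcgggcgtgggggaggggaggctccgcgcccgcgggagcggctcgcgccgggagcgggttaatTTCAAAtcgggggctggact
Cdk1: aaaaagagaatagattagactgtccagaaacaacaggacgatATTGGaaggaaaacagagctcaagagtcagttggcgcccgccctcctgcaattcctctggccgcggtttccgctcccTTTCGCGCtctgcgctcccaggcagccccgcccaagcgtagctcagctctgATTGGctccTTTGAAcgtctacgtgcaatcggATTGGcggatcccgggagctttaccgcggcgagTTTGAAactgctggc
Top2a: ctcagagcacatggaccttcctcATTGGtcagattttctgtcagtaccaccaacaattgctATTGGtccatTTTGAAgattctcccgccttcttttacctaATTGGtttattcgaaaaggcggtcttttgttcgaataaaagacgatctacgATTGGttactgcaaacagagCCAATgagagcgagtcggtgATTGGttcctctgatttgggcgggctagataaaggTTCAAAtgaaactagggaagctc
Kif23: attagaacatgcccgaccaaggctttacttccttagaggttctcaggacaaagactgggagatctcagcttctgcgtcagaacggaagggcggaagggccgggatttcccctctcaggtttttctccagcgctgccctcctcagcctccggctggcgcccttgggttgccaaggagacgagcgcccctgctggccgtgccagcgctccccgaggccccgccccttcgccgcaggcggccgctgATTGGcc
Kif23 held no E2F or CHR letters, and its 1 CCAAT match had its first base at position -7 from the start; that of E2f8 was at -112.

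E2f8, an atypical E2F that represses E2F targets late in S phase, fell the most. Its levels in KO replicates 1 to 5 were 7.01, 8.67, 9.99, 7.55 and 6.68, and in WT replicates 1 to 5 9.84, 10.02, 10.32, 9.35 and 9.99. The WT arrays lay close together, and 4 of the 5 KO arrays were below all of them, with KO replicate 3 inside the WT range. The difference was -1.92 with a standard error of 0.53 (limma, adjusted p = 0.0184), and it passed whichever 1 of the 10 arrays was left out. Its values in KO replicates 1 and 5 lay below the negative control percentiles of those arrays, so the size of the difference is uncertain. Ccne2, a cyclin E that activates Cdk2 at S phase entry, read 5.15, 6.09, 7.04, 4.74 and 4.93 in KO and 7.30, 7.34, 7.75, 6.02 and 6.96 in WT. KO replicates 2 and 3 lay within the WT range and the other 3 KO arrays below it, and the difference was -1.48 (standard error 0.44; limma, adjusted p = 0.0277). On 9 of the 10 arrays Ccne2 lay at or below the negative control percentile, which limits the size that could be seen.

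The related cyclin Ccne1 did not pass. It stood at 6.62, 7.89, 8.76, 7.17 and 7.19 in KO and 8.74, 8.16, 8.60, 7.26 and 8.53 in WT, so that KO replicate 3 was the highest of the 10 arrays and KO replicates 1, 4 and 5 were below all WT arrays. The difference was -0.73 with an interval of -1.58 to 0.12 at 95% confidence. E2f1, the activator E2F that opens S phase, differed by -0.41 (interval -1.24 to 0.42; limma, adjusted p = 0.488). Its levels were 6.06, 7.33, 7.73, 6.34 and 6.32 in KO and 7.55, 6.98, 7.64, 6.06 and 7.60 in WT. KO replicate 3 held the highest E2f1 value, and WT replicate 4 lay with KO replicates 1, 4 and 5.

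Of the 11 measured licensing and helicase genes, 1 fell and 10 did not pass. Mcm10, which helps the loaded helicase to start, stood at 8.08, 8.99, 9.35, 7.64 and 7.51 in KO and 9.99, 9.19, 9.78, 8.85 and 9.59 in WT. Its KO arrays were low apart from replicates 2 and 3, which overlapped WT. The difference was -1.17 with a standard error of 0.36 (limma, adjusted p = 0.0315). Mcm2, a subunit of the helicase ring, read 8.43, 9.12, 10.02, 8.24 and 8.21 in KO and 9.45, 9.31, 10.0, 8.0 and 9.64 in WT. There KO replicate 3 was the highest of all 10 arrays and WT replicate 4 the lowest, and the difference of -0.47 did not pass (interval -1.38 to 0.43). The 4 other measured ring subunits, Mcm3, Mcm4, Mcm5 and Mcm6, differed by -0.61, -0.64, -0.91 and -0.57, and none passed.

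Cdt1, which loads the ring, differed by -0.90 (limma, adjusted p = 0.0603), just outside the threshold, and its partner Cdc6 by -0.70. Cdc45, which joins the active helicase, differed by -0.70. The GINS subunits showed the smallest differences of this role, -0.32 for Gins1 and -0.40 for Gins2. Gins1 levels were 5.35, 6.43, 7.83, 5.21 and 5.30 in KO and 6.83, 6.22, 7.31, 4.85 and 6.54 in WT. KO replicate 3 held the highest Gins1 value and WT replicate 4 the lowest, and the interval of the difference was -1.54 to 0.89. Gins1 was at or below the negative control percentile on 8 of the 10 arrays.

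None of the 4 nucleotide supply genes passed. Tk1, the thymidine kinase, came nearest at -0.71 (limma, adjusted p = 0.0561). It read 6.33, 6.92, 6.84, 6.37 and 6.04 in KO and 7.39, 7.33, 7.77, 6.38 and 7.17 in WT, so that 4 WT arrays lay above all KO arrays and WT replicate 4 among them. Tk1 had the smallest SD in KO of the 42 members, 0.37, but it lay at or below the negative control percentile on 9 of the 10 arrays, all 5 KO arrays among them. Rrm2, the small subunit of ribonucleotide reductase, stood at 7.81, 9.91, 10.44, 8.41 and 7.30 in KO and 9.79, 8.89, 9.67, 7.90 and 9.34 in WT. KO replicates 2 and 3 exceeded every WT array for Rrm2, and its difference of -0.34 became 0.024 without KO replicate 5. The large subunit Rrm1 differed by -0.70 and the thymidylate synthase Tyms by -0.55.

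Among the 4 DNA synthesis genes, 1 fell and 3 did not pass. Pcna, the sliding clamp of the polymerases, stood at 10.15, 10.68, 11.05, 9.89 and 9.60 in KO and 11.09, 11.10, 11.39, 10.53 and 11.17 in WT. KO replicates 1, 4 and 5 were below all WT arrays, and KO replicates 2 and 3 exceeded WT replicate 4 but no other WT array. The difference was -0.78 with a standard error of 0.26 (limma, adjusted p = 0.0453). Prim1, a primase subunit, and Fen1, the flap nuclease of Okazaki fragments, differed more but varied more, by -1.33 and -1.27 (limma, adjusted p = 0.087 and 0.07). The ligase Lig1 read 6.66, 7.59, 7.97, 6.81 and 6.72 in KO and 7.97, 7.86, 8.16, 6.96 and 7.75 in WT. Its KO replicates 2 and 3 lay within the WT range, and the difference was -0.59 (interval -1.23 to 0.05).

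For 3 of the 4 genes the adjusted p was close to the threshold. With 1 array left out, Pcna passed when that array was replicate 2 or 3 of KO or replicate 4 of WT, and not otherwise. Mcm10 passed in the same fits and in that without WT replicate 2, and Ccne2 in the same fits and in that without WT replicate 5. In the fits that did not pass, the Pcna difference was -0.78 to -0.61 (limma, adjusted p = 0.0799 to 0.108), that of Mcm10 -1.14 to -0.97 (0.0649 to 0.0795) and that of Ccne2 -1.43 to -1.27 (0.0585 to 0.0703). The direction was kept in these fits. Removing WT replicate 4 raised the count to 8 S phase and 2 M phase genes, and removing KO replicate 3 to 9 and 9. Without KO replicate 2 it was 6 and 2, without WT replicate 2 or 5 it was 2 and 0, and without any 1 of the other 5 arrays 1 and 0, E2f8 alone. Of all 19572 probe sets, 2296 were lower in KO with every array kept and 1855 to 2310 with 1 array left out. Adjusted over all probe sets, Pcna stood at 0.0563 in limma, and of the 4 genes E2f8 alone passed limma's treat against a 1.2-fold change.

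**Figure D2:**
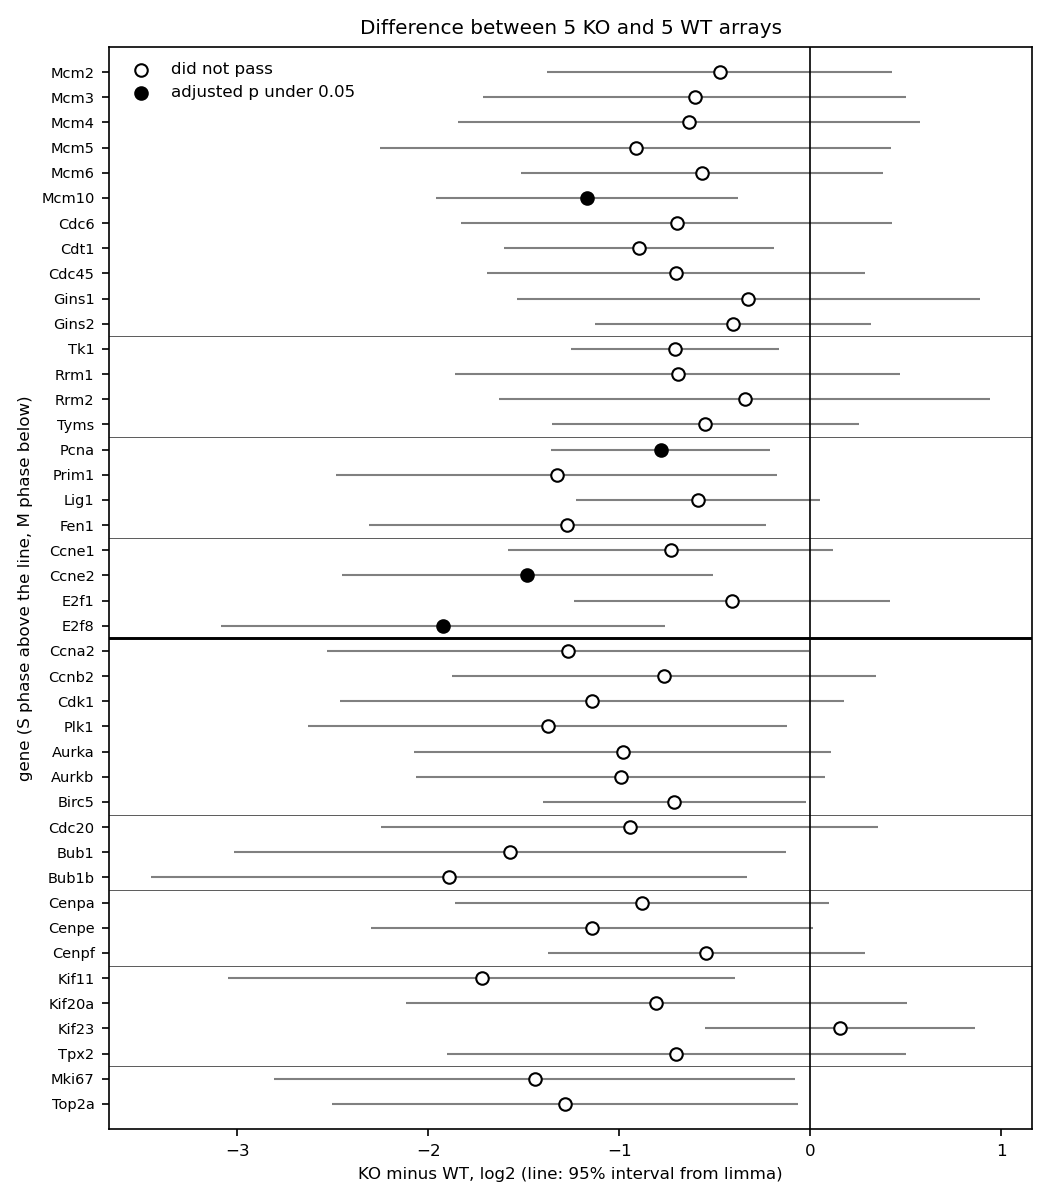
Points give KO minus WT on the log2 scale for each member, lines the 95% interval from limma, and filled points the 4 members that passed. All points but that of Kif23 (0.16, below 0 without KO replicate 3 or without WT replicate 4) lie left of 0, and most intervals reach 0.

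The M phase genes had larger mean differences than the S phase genes, with a median of -0.99 against -0.70, but a wider spread in KO. None of the 7 measured mitotic kinase and cyclin genes passed. Plk1, the polo kinase that drives spindle assembly, had the smallest p of them. It read 8.51, 10.14, 10.73, 8.57 and 7.35 in KO and 10.89, 10.39, 10.96, 9.32 and 10.62 in WT, with KO replicates 2 and 3 within the WT range and KO replicate 5 far below. The difference was -1.37 (interval -2.63 to -0.12; limma, adjusted p = 0.103). Cdk1, the kinase that triggers mitosis, stood at 6.96, 8.55, 9.12, 6.76 and 5.65 in KO and 9.04, 8.53, 9.25, 7.33 and 8.59 in WT. Its KO arrays ranged over 3.47, its WT arrays over 1.92, and the difference was -1.14.

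Ccnb2, a B-type cyclin and partner of Cdk1, read 8.60, 10.15, 9.92, 8.18 and 7.46 in KO and 10.46, 9.42, 10.01, 8.64 and 9.59 in WT. Unlike most members its highest KO array was replicate 2, and its difference of -0.77 had an interval of -1.88 to 0.34. Cyclin A2 (Ccna2), which acts from S phase to mitosis, differed by -1.27. The Aurora kinases Aurka, at the spindle poles, and Aurkb, at the centromere, differed by -0.98 and -0.99. Birc5, or survivin, the partner that places Aurkb, differed by -0.71.

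The 3 spindle checkpoint genes had the widest spread of the roles in KO, with a median SD of 1.62, and none passed. Bub1b levels were 6.69, 8.46, 9.15, 6.21 and 4.86 in KO and 9.25, 8.88, 9.71, 7.72 and 9.27 in WT. The KO range of 4.29 was the widest of the 42 members, and KO replicate 5 lay near the negative control medians. The difference of -1.89 was close in size to that of E2f8 but did not pass (interval -3.45 to -0.33; limma, adjusted p = 0.073). Bub1, a kinase of the same checkpoint, differed by -1.57. Cdc20, which activates the anaphase-promoting complex once the checkpoint is met, read 7.49, 9.27, 9.60, 7.55 and 6.10 in KO and 9.19, 8.98, 9.48, 7.84 and 9.24 in WT. Here KO replicate 3 exceeded every WT array, and the difference was -0.95 (interval -2.25 to 0.35).

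The 3 centromere genes did not pass. Cenpe, a kinesin that links chromosomes to microtubules, stood at 6.67, 8.20, 9.01, 6.84 and 5.93 in KO and 8.67, 8.69, 9.13, 7.45 and 8.43 in WT, a difference of -1.14. Cenpf, a large protein of the outer kinetochore, stood at 6.86, 7.94, 8.29, 6.85 and 6.10 in KO and 7.78, 7.77, 8.30, 7.09 and 7.81 in WT, a difference of -0.54. In both, KO replicates 2 and 3 lay within the WT range. Cenpa, the histone H3 variant of the centromere, differed by -0.88.

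Of the spindle motors and the spindle assembly factor Tpx2, the motor Kif11, which pushes the poles apart, came nearest to the threshold. It read 7.0, 8.38, 9.09, 6.64 and 5.35 in KO and 9.19, 9.11, 9.62, 7.93 and 9.20 in WT, and only WT replicate 4 lay among the KO arrays. The difference was -1.72 (limma, adjusted p = 0.0562). Kif20a and Tpx2, which act in cytokinesis and in spindle assembly, differed by -0.81 and -0.70. Kif23, a motor of the central spindle, was the exception in direction. Its levels were 9.09, 9.83, 10.36, 9.28 and 8.72 in KO and 9.51, 9.42, 9.68, 8.36 and 9.52 in WT.

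KO replicates 2 and 3 held the 2 highest Kif23 values and WT replicate 4 the lowest. The difference was 0.16 (interval -0.55 to 0.86; limma, adjusted p = 0.776), and it was -0.071 without KO replicate 3 and -0.079 without WT replicate 4. Set against the centred mean of the 18 other M phase members of the same array, Kif23 read 0.77, -0.07, -0.02, 1.08 and 1.43 in KO replicates 1 to 5. In WT this relative level was -0.72, -0.53, -0.82, -0.54 and -0.58. The groups did not overlap on that scale, a comparison chosen after the values were seen and given with no test. They did not overlap for 7 of the 42 members, Kif23 and Tpx2 higher in KO and E2f8, Bub1b, Ccne2, Kif11 and Plk1 lower. The share of all probe sets without overlap on such a scale was not computed. On the levels themselves, an unlike scale, that share was 21.4%. The count of 7 therefore cannot be judged high or low and is not used to mark these members out. E2f8 relative to the 22 other S phase members was -1.14, -0.47, 0.19, -0.45 and -1.09 in KO and 0.27, 0.70, 0.36, 1.2 and 0.44 in WT, with every KO array below every WT array.

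Mki67, the Ki-67 antigen that coats mitotic chromosomes and marks cycling cells, did not pass. It stood at 8.75, 10.06, 10.83, 8.10 and 6.88 in KO and 10.41, 10.49, 10.93, 9.52 and 10.46 in WT. KO replicates 2 and 3 lay within the WT range, and the other 3 KO arrays were below all WT arrays. The difference was -1.44 (interval -2.81 to -0.08; limma, adjusted p = 0.116). Top2a, the topoisomerase that untangles sister chromatids, read 7.16, 8.54, 9.10, 6.76 and 6.10 in KO and 9.43, 8.73, 9.48, 7.54 and 8.93 in WT. KO replicates 2 and 3 lay within the WT range and the other 3 below it, and its difference was -1.29 (interval -2.51 to -0.07).

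**Figure D3:**
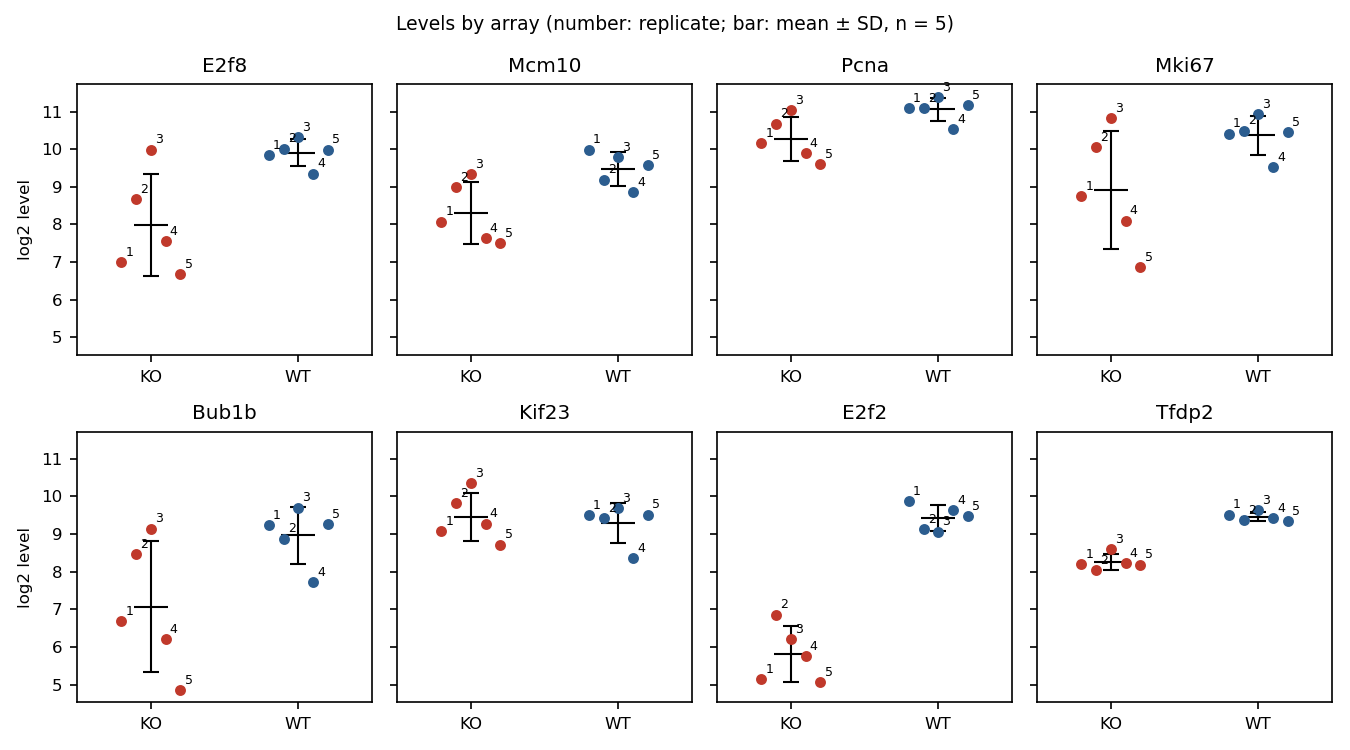
Each panel gives the log2 level of 1 gene in 5 KO and 5 WT arrays, numbered by replicate, with the mean and SD. E2f8, Mcm10 and Pcna passed with overlapping arrays, Mki67, Bub1b and Kif23 did not pass, and the regulators E2f2 and Tfdp2 had no overlap between groups.

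The spread within KO was wider than within WT for 38 of 42 members, and for 19 of 19 M phase genes. The median SD of a member was 1.06 in KO and 0.66 in WT, where the medians over all probe sets were 0.20 and 0.21. In KO, 39 members exceeded an SD of 0.59, which is the 95th percentile of all probe sets, and in WT 28 exceeded the matching value of 0.59. The median range over KO arrays was 3.08 for M phase and 2.14 for S phase genes. In WT it was 1.67 and 1.89, the other way round. The difference in spread between groups was not tested.

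**Figure D4:**
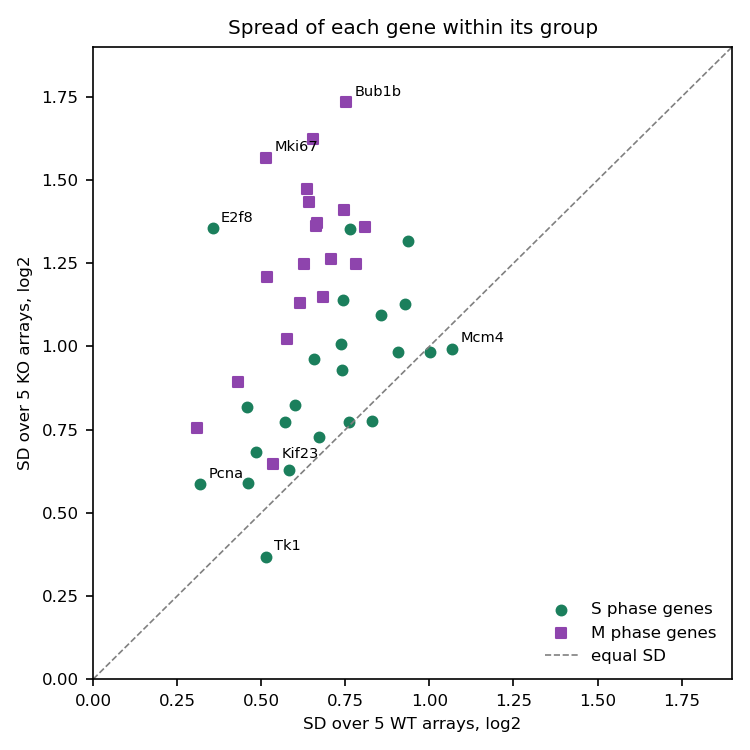
The SD of each member over 5 KO arrays is plotted against its SD over 5 WT arrays, both on the log2 scale. M phase genes lie above the line of equal SD throughout, with Bub1b highest at 1.73, while the S phase genes Tk1, Mcm4, Mcm6 and Rrm1 lie below it.

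To compare the phases array by array, the 10-array mean of each gene was subtracted from its levels, and these were averaged over the genes of a phase. S phase levels were -0.84, 0.18, 0.86, -0.96 and -1.23 in KO replicates 1 to 5 and 0.65, 0.41, 1.04, -0.74 and 0.63 in WT. M phase levels were -1.02, 0.51, 1.01, -1.12 and -2.01 in KO and 0.81, 0.55, 1.09, -0.50 and 0.69 in WT. An array high in one phase was high in the other, with KO replicate 3 beside the WT arrays and WT replicate 4 nearest to KO replicates 1 and 4. For S phase the WT mean was 0.40 ± 0.67 (SD, n = 5) and the KO mean -0.40 ± 0.88 (SD, n = 5); for M phase they were 0.53 ± 0.61 (SD, n = 5) and -0.53 ± 1.25 (SD, n = 5). Both differences, -0.79 and -1.05, were smaller than the KO SD; no test was made on them because the members were chosen with results known.

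The balance of the phases was steady in WT and varied in KO. The S phase minus the M phase level was -0.17, -0.14, -0.05, -0.24 and -0.06 in WT, a range of 0.18. In KO it was 0.18, -0.33, -0.14, 0.16 and 0.78, a range of 1.11. Because each gene was centred over the 10 arrays, the place of 0 on this scale is set by the centring, and only the order and spacing of the arrays can be read. KO replicates 1, 4 and 5 stood above all WT arrays, replicate 5 by the most, KO replicate 2 stood below them and KO replicate 3 among them. WT replicate 4, although low in both phases, was the lowest WT array on the balance. With so few arrays in a group no correlation was computed.

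The same balance was read from other genes of the pathway that are not members. For 43 measured replication genes minus 71 measured mitosis genes it was 0.37, -0.24, -0.20, 0.28 and 0.71 in KO and -0.19, -0.19, -0.16, -0.22 and -0.17 in WT. KO replicates 1, 4 and 5 again stood above all WT arrays, KO replicate 2 below them and KO replicate 3 among them, on a scale whose 0 is likewise set by the centring. These lists were chosen with results of the data known, and their genes were measured in the same RNA, so they do not add independent samples. The part of background signal was not tested here either.

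**Figure D5:**
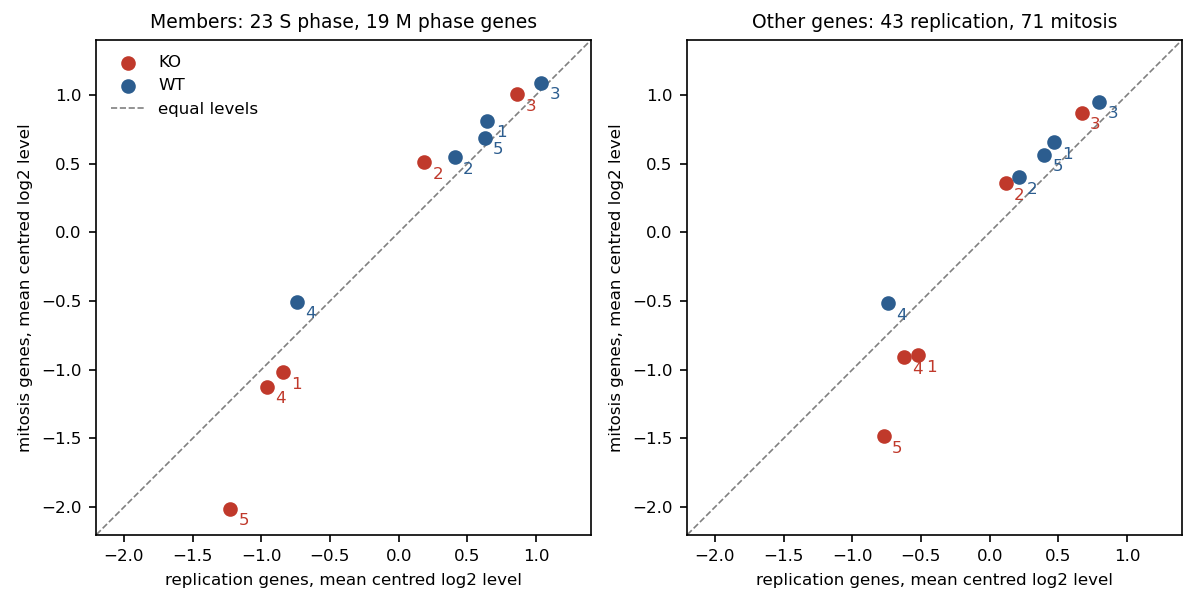
Mean centred log2 levels of replication genes (horizontal) and mitosis genes (vertical) are shown for 5 KO and 5 WT arrays, numbered by replicate; the left panel holds the members and the right panel the other genes. KO replicate 5 lies farthest below the line of equal levels in both panels, by 0.78 and 0.71; the place of that line is set by the centring.

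Of the 43 other replication genes 0 passed in limma, where 26.7% of all probe sets did. Of these 43 genes 10 had an unadjusted limma p under 0.05, as did at least 26.7% of all probe sets, and the median difference was -0.46. The 4 with the smallest p were Rpa2, which coats single-stranded DNA (-0.88), the origin subunit Orc4 (0.39), the Cdt1 inhibitor Gmnn (-1.02) and the clamp loader subunit Rfc5 (-0.73), at limma adjusted p-values of 0.0532 to 0.11. Of the 71 other mitosis genes 1 rose, 5 fell and 65 did not pass, with a median of -0.84. These are 1.41% higher and 7.04% lower, against 15% and 11.7% of all probe sets. Psrc1, which binds spindle microtubules, rose by 1.16 and did not overlap between groups, at 8.14, 8.73, 8.44, 8.05 and 8.20 in KO and 7.26, 7.05, 7.36, 7.01 and 7.09 in WT (limma, adjusted p = 6.73e-05). The condensin subunit Ncapd3 fell by 1.0, and the kinetochore genes Cenpu and Cenpp by 1.32 and 1.24. Psrc1 and Ncapd3 were the 2 of 71 genes with no overlap between groups, where 21.4% of all probe sets had none. Cenpp lay at or below the negative control percentile on all 10 arrays, Cenpu on 5 KO and 3 WT arrays, and Psrc1 on 4 WT arrays. This limits what their sizes show. Nuf2 and the motor Kif15, named because they complete the count of 5, fell by 1.67 and 2.05. Without KO replicate 3 the count of lower mitosis genes was 34, without WT replicate 4 it was 20, without KO replicate 2 it was 11, without WT replicate 1 it was 3, and without any 1 of the other 6 arrays it was 2.

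Of 29 measured regulators of the cycle 8 fell, 1 rose and 20 did not pass, so that 31% passed where 26.7% of all probe sets did, with 27.6% lower against 11.7% of all. E2f2, an activator E2F, stood at 5.15, 6.86, 6.22, 5.75 and 5.08 in KO and 9.88, 9.13, 9.07, 9.64 and 9.47 in WT. All KO arrays, replicate 3 included, lay below the WT arrays, and the difference was -3.63 (standard error 0.32; limma, adjusted p = 4.68e-06). The KO values of E2f2, at most 6.86, lay below the lowest negative control percentile of 7.17. Tfdp2, a partner of some E2F proteins in binding DNA, read 8.21, 8.04, 8.60, 8.23 and 8.19 in KO and 9.52, 9.38, 9.63, 9.43 and 9.34 in WT. The difference was -1.2 with no overlap (limma, adjusted p = 1.17e-05). The related Tfdp1 differed by -0.12 and did not pass.

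Myb, a transcription factor of progenitor cells, stood at 7.46, 7.04, 6.71, 5.64 and 5.73 in KO and 10.71, 10.21, 10.67, 8.31 and 10.47 in WT, again with no overlap (difference -3.56; limma, adjusted p = 0.000181). Its 5 KO values, too, lay below the negative control percentiles of their arrays, so the size of the difference is uncertain. Lin54, the DNA-binding subunit of the DREAM and MuvB complexes that recognises the CHR, differed by -1.21 (limma, adjusted p = 0.00228). The KO arrays of Lin54, at 7.66, 7.99, 8.52, 7.61 and 7.10, lay below the WT arrays, at 9.21, 8.91, 9.27, 8.58 and 8.96, with replicate 3 close to them. Among all probe sets 9.07% were lower in KO with no overlap, and among the 29 regulators 6 were, with Cdc25a and Rb1 beside the 4 genes named here.

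The mean centred level of 6 stem cell markers was -0.50, -0.64, -0.46, -0.72 and -0.25 in KO. Ascl2 and Smoc2 lay below the negative control percentile on all 5 KO arrays, with KO SDs of 0.23 and 0.07. The brighter Rgmb and Slc12a2 had KO SDs of 0.11 and 0.25, and Axin2 and Lgr5 of 0.69 and 0.56. What sets the narrow range of the mean level in KO was not tested. In WT the mean centred level of the 6 was 0.62, 0.44, 1.43, -0.79 and 0.86, and replicate 4 was lowest and replicate 3 highest there, as in the members. Of these 6 markers 3 fell (Smoc2, Ascl2 and Rgmb) and none rose. The 6 enterocyte markers all fell, and their level was 2.0, 3.75, 2.75, 4.03 and 3.56 in WT, highest in replicate 4, and -3.32 to -3.10 in KO. Of the 5 Paneth cell markers 4 fell and 1, Mmp7, rose, and their level ranged over 0.31 in KO and 0.52 in WT. Those 4 and the 6 enterocyte markers lay at or below the negative control percentile on all 5 KO arrays. This limits what the narrow KO ranges show. Of markers of cells outside the epithelium, 2 of 7 immune genes rose (Itgam and Csf1r) and 1 of 8 mesenchymal genes fell (Lum), 1 of 4 glial and neuronal genes rose (S100b, by 0.46), and 0 of 5 endothelial genes passed. Lum and S100b lay at or below the negative control percentile on all 5 KO and all 5 WT arrays, so little can be read from them. The part of these cell types in the members' levels was not tested, and in whole organoids fewer dividing cells and less RNA of these genes per cell cannot be told apart.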

How the data were processed

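Biotin-labelled RNA (100 ng per array, WT PLUS kit, per the labels' protocols) from 5 KO and 5 WT organoid samples was measured on 1 array each. The authors deposited log2 levels per probe set; RMA and limma are named in the submitters' processing notes, without versions, and the sources used here do not say which arrays entered 1 normalization. Of 28846 probe sets 6640 were controls, 19572 had 1 gene symbol, 0 had several and 2634 are unnamed here. The number of arrays limits precision.

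KO was compared with WT by limma 3.58.1 (R 4.3.3; linear model, moderated variances, all probe sets), with Benjamini-Hochberg adjustment over the 19572 and a threshold of 0.05. Each measured member had 1 probe set; elsewhere the one with the highest mean stood for its gene. Members, lists and alternatives were chosen with earlier results of these data known. Values in every array are given for the members with the smallest and largest p of each role, for members fixed by name, for the 4 that passed and for some other genes; of each other list, the 4 genes with the smallest p are named, and genes that complete a count are said to do so. Same-numbered arrays were not taken as pairs. The pairing check and 23 alternative settings are given in the closing section. Promoters came from RefSeq (GRCm38.p6). Scripts (Python 3.11.15, pandas 2.3.3, numpy 2.4.6, scipy 1.17.1, matplotlib 3.10.9) were tested on simulated data.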

Additional observations from a re-analysis of the deposited data

Results flagged for a closer look

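WT replicate 4 lay far below the other 4 WT arrays in 4 members and 2 other named genes. Mcm5 read 7.46 against 9.14 to 9.79, Mcm6 8.24 against 9.82 to 10.35, Birc5 8.39 against 9.0 to 9.19 and Kif23 8.36 against 9.42 to 9.68. Outside the members, Cenpu read 6.20 against 7.21 to 7.61 and Myb 8.31 against 10.21 to 10.71. In each, the gap to the next array was over 0.71 of the range, Dixon's critical value for 5 arrays. No KO group and no S phase or M phase level by array met that limit. Among 114 groups of 5 checked, chance alone would mark about 1 in 20, and genes that move together are not independent marks.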

How the results depend on the processing

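S phase genes lower in KO numbered 4, and M phase genes 0. With single arrays left out these counts ranged from 1 to 9 and from 0 to 9, with no member higher in KO (0 to 0). The counts were 9 and 10 with array weights, 9 and 9 with KO replicate 2 and WT replicate 4 left out, and 1 and 0 by limma's treat against a 1.2-fold change. Cyclic loess, centring on the 75th percentile and leaving out the dimmest 25% of probe sets each gave 1 M phase gene, and 6, 6 and 5 S phase genes. With the replicate number as a block, 8 S phase and 2 M phase genes were lower; same-numbered arrays deviated together with r from -0.07 to 0.36, and 4 of 10 arrays correlated best with their own number, so the numbers were not taken to pair arrays.

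Other mitosis genes lower in KO numbered 5, and 8 with each of cyclic loess, 75th percentile centring and the dim filter, 32 with array weights, 2 with treat, 19 with the replicate block, 29 with both arrays left out, and 2 to 34 with single arrays left out. Other replication genes lower in KO numbered 0, and 1 with each of cyclic loess, 75th percentile centring, the dim filter and the fit without control and unnamed probe sets, 12 with array weights, 9 with the replicate block, 12 with both arrays left out, and 0 to 13 with single arrays left out. 1 was higher with cyclic loess, array weights or the replicate block, and 0 to 1 with single arrays left out. Regulators higher in KO numbered 1, 2 with array weights and 1 to 2 with single arrays left out; those lower numbered 7 to 11, and other mitosis genes higher 1 to 1. Over all genes 5224 passed, 3034 by treat (1772 higher, 1262 lower) and 4344 to 5187 with single arrays left out (2475 to 2935 higher, 1855 to 2310 lower). Fewer samples or a stricter null hypothesis were part of these alternatives; for the others the cause was not tested.

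Kif23 turned negative with array weights (-0.030) and without both KO replicate 2 and WT replicate 4 (-0.17), and ran from -0.079 to 0.34 with single arrays left out, negative without KO replicate 3 or WT replicate 4. Rrm2 ran from -0.76 to 0.024, positive without KO replicate 5. The cause was not tested. The group differences of array levels moved by less than the larger SD of the 2 groups under every alternative run. For S phase, M phase and their balance that SD was 0.88, 1.25 and 0.42, and the differences were -0.79, -1.05 and 0.26. The limit was thus wider than the differences and says little about their stability. With single arrays left out the differences were -1.11 to -0.58 for S phase, -1.44 to -0.68 for M phase and 0.10 to 0.38 for their balance. Cyclic loess on array levels was added after the data were seen. Background signal limits the dim members: 7 of 42 exceeded the 95th percentile of negative controls on all arrays.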
